A study of Mus musculus with 2 samples.

Results

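The Malat1 and Neat1 locus of mouse chromosome 19 was examined in a list of open chromatin peaks from cardiac progenitor cells (CPCs). Its members were 4 neighbouring gene entries, Malat1, mascRNA (spelled Mascrna in the list), Neat1 and Frmd8. The mascRNA entry lies inside the annotated Malat1 gene. Peaks of the locus were chosen by the gene symbol that the list assigns to each interval. The locus was itself selected on the number, distance, width and spacing of these peaks, so those values are given as a description. This gave 6 of 26232 distinct peaks, of which 3 were assigned to Malat1, 2 to mascRNA, 1 to Frmd8 and 0 to Neat1. The list assigns a peak to the gene with the nearest start site, so assignment is a matter of position and does not show which gene a region acts on.

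The assay was ATAC-seq, which uses the transposase Tn5 to cut accessible DNA and add adapters for sequencing. The study asked how the cardiac transcription factor Isl1 shapes chromatin during heart cell formation. The 1 group analysed here held 2 replicate samples of CPCs at day 5, made in separate differentiations from the E14 Tg(Nkx2–5-EmGFP) mouse embryonic stem cell line, which the labels give as strain C57BL/6. All cells carried the EmGFP reporter transgene of the cardiac gene Nkx2-5. They were primed with LIF and BMP4, aggregated, aggregated again with Activin A, VEGF and BMP4, and plated with VEGF, bFGF and FGF10. The labels give no other treatment, and their extraction protocol describes no sorting by the reporter, so other cells of the culture could be included. Of protein coding genes with an NM accession, 65.1% had a peak and 52.1% had one within 1 kb of the start site. Of 8 markers of cardiac progenitors 7 (87.5%) had a peak and 6 (75%) had one within 1 kb, and Hand2 had none. Of 8 markers of other cell types 5 (62.5%) had a peak, near the share of all coding genes, and 1 (12.5%), Sox1, had one within 1 kb. Both replicates are represented by 1 list, in which a peak is a region called in each of them. The list holds no height, score or value per replicate, so the depth and the error between replicates are unknown and no test was possible. A missing peak does not show closed chromatin, since regions called in only 1 replicate were dropped and some lines may not have been available here.

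Malat1 is a long noncoding RNA that stays in the nucleus and gathers at nuclear speckles, bodies rich in splicing factors. RNase P cuts its primary transcript near the 3′ end, which leaves the mature Malat1 RNA and a small tRNA-like RNA, mascRNA, whose own 3′ end is made by RNase Z and which moves to the cytoplasm. Neat1 is the architectural RNA of paraspeckles, nuclear bodies that hold RNA-binding proteins of the SFPQ, NONO and PSPC1 group, and its long isoform is required to build them. Frmd8, the protein coding member, makes a FERM domain protein that binds the iRhom proteins and so stabilises the shedding protease ADAM17 at the cell surface.

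All 4 are transcribed from the minus strand of chromosome 19, in the order Frmd8, Neat1 and Malat1, with mascRNA inside Malat1. It lies 234 bp from the annotated 3′ end of the Malat1 gene. Positions are 1-based on mm9, and each sequence is printed 5′ to 3′ on the minus strand. mascRNA lay at chr19:5795924-5795981, with its start taken from the deposited distances and its length of 58 nt from the RefSeq gene table. It is shown because the widest peak of the locus ended beside it.
mascRNA: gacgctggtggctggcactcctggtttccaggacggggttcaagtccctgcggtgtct
The next windows run from 250 bases before to 50 bases after the annotated start site, at chr19:5802622-5802921 for Malat1 and chr19:5875225-5875524 for Frmd8. They are shown because a peak covered the start site of Frmd8 and not that of Malat1. Capitals mark matches to the motifs counted below.
Malat1 promoter: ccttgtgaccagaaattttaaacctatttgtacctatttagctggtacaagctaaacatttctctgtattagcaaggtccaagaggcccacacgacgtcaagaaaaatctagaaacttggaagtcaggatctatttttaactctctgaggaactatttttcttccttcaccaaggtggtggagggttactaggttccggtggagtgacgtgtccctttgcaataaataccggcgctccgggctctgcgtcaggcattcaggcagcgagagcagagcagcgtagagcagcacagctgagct
Frmd8 promoter: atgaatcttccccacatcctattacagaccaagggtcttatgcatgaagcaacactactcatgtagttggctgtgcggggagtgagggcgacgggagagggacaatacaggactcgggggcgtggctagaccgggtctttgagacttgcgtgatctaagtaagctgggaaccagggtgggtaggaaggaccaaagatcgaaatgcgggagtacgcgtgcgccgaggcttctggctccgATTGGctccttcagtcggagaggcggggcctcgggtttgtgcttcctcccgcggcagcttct
The last 3 are the central 150 bases of peaks that differed most in composition. They lie at chr19:5803579-5803728 in the Malat1 peak nearest its start site, at chr19:5814126-5814275 in a distal Malat1 peak centred on a tandem repeat, and at chr19:5794298-5794447 in the widest mascRNA peak.
Malat1 -981 peak centre: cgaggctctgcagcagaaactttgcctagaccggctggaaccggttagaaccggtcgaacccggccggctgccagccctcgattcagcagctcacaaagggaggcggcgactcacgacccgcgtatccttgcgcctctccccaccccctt
Malat1 -11528 peak centre: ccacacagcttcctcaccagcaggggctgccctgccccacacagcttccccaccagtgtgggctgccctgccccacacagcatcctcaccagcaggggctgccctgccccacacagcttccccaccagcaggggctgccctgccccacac
mascRNA +1609 peak centre: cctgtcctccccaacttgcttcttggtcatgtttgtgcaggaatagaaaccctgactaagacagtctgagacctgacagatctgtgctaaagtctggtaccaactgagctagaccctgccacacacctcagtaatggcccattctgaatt
Each peak is named by its deposited distance in bp from the assigned start site to the peak midpoint, negative upstream.

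Neat1, the paraspeckle RNA, had 0 peaks. Its gene (chr19:5824708-5845478, 20771 bp, 4 annotated transcripts in GENCODE) was overlapped by no peak of any gene. The nearest peak edge on the upstream side was 29292 bp from the Neat1 start site and belonged to Frmd8. On the downstream side the nearest edge was 21566 bp from the start site and 796 bp past the annotated 3′ end, and belonged to the peak Malat1 -20755. The midpoint of that peak was 22051 bp downstream of the Neat1 start site and stood at -20756 bp from the annotated Malat1 start site, so the nearest-start rule gave it to Malat1 by a difference small against either distance. For comparison, 33.1% of 3319 long noncoding RNA genes with an NR accession had at least 1 peak, and 53.9% of 2214 GENCODE noncoding genes at least 5 kb long had no peak anywhere in their body. A noncoding gene without a peak was therefore common in this list.

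Malat1, the speckle RNA, had 3 peaks and all of them lay upstream. Its gene (accession NR_002847, chr19:5795690-5802671, 6982 bp, 5 annotated transcripts) carried no peak over its start site, and the only peak to reach into it touched its 3′ end and was assigned to mascRNA. The peak Malat1 -981 (chr19:5803032-5804275) was 1244 bp wide and its nearest edge was 360 bp upstream of the start site. It overlapped no annotated gene. The peak Malat1 -11528 (chr19:5813657-5814745) was 1089 bp wide, and the peak Malat1 -20755 (chr19:5822943-5823912), the narrowest of the 6, was 970 bp wide. Both were intergenic, the first 10985 bp and the second 20271 bp from the Malat1 start site at their nearest edge. Among noncoding genes, 10.2% of the 3319 with an NR accession had a peak with its midpoint within 1 kb of the assigned start site, as Malat1 did at -981 bp. A peak over the 5′-most start site was found at 26.3% of 3845 GENCODE noncoding genes, and Malat1 and Neat1 were both among those without one.

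A peak that counts as near a start site but leaves it uncovered was uncommon in the list. Of 10581 peaks within 1 kb of a start site with a known strand, 251 (2.37%) did not cover it. Among the 245 of these peaks that belonged to genes with an NR accession, 15 (6.12%) did not. The distance accounts for part of such a count by construction, because 54 of the 77 peaks with a midpoint at least 900 bp away (70.1%) left the start site uncovered. The window printed for the Malat1 promoter therefore lay outside the peak, on the side of the gene.

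mascRNA, the tRNA-like product, had 2 peaks, both on the downstream side. Their assignment to mascRNA rests on the list counting this processed RNA as a gene with its own start site. The peak mascRNA +1609 (accession NR_144621, chr19:5792903-5795843) was 2941 bp wide and was the widest of the locus. It was wider than 98.8% of all peaks, 98.2% of the peaks within 1 kb of a start site and 99.3% of those beyond 1 kb. The mascRNA sequence itself was not covered: the peak edge stood 138 bp from its first base and 81 bp from its last. The same peak overlapped the last 154 bp of the annotated Malat1 gene, including its last base, which is 2.21% of the Malat1 gene length. Its midpoint was 8299 bp downstream of the Malat1 start site, past the 3′ end of the 6982 bp gene. The peak mascRNA +8953 (chr19:5786201-5787857) was 1657 bp wide, wider than 83.9% of all peaks, and overlapped no annotated gene.

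The Malat1 gene thus had a peak over its last base and none over its start site. A peak over the last base was found at 169 of 3845 GENCODE noncoding genes (4.4%), and 128 of them (3.33%) had no peak over the start site. Among the 2214 noncoding genes of at least 5 kb, in which a single peak is less likely to reach both ends, 59 (2.66%) had a peak over the last base, 626 (28.3%) had one over the start site and 49 (2.21%) had only the former. Since the locus was chosen with its peaks known, these shares describe where Malat1 stood in the list and test nothing.

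Frmd8, the coding member, was the member whose peak covered its start site. Its single peak Frmd8 -148 (accession NM_026169, chr19:5874770-5875943) was 1174 bp wide, wider than 58.0% of all peaks and than 34.8% of those within 1 kb of a start site. It overlapped the first 505 bp of the annotated gene (chr19:5849702-5875274, 25573 bp). Of 21031 protein coding genes with an NM accession, 65.1% had at least 1 peak and 52.1% had one within 1 kb of the assigned start site. Frmd8 had the arrangement that most coding genes with a peak had.

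**Figure D1:**
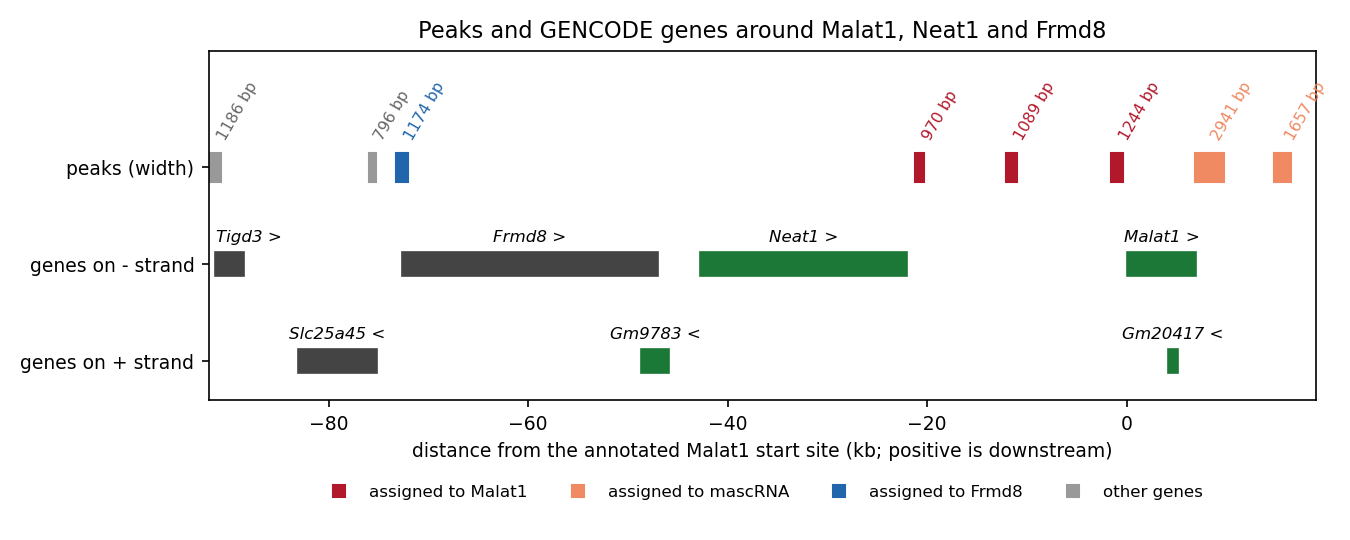
Peaks (upper boxes, with width in bp) and GENCODE genes on the minus and plus strands (green, noncoding; dark grey, protein coding) against distance from the annotated Malat1 start site in kb, with positive values downstream and arrowheads giving the direction of transcription. The 3 Malat1 peaks stand upstream of the gene, the mascRNA peaks at and beyond its 3′ end, and the Neat1 gene lies in the 50857 bp between the peaks Malat1 -20755 and Frmd8 -148.

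The 6 peaks had a median width of 1209 bp and a summed width of 9075 bp. All 26232 peaks had a median of 1081 bp, with 1326 bp for peaks within 1 kb of a start site and 911 bp for those beyond. The locus peaks ordered by width were Malat1 -20755, Malat1 -11528, Frmd8 -148, Malat1 -981, mascRNA +8953 and mascRNA +1609. The 2 peaks within 1 kb of a start site, at Frmd8 and Malat1, were narrower than the median of that class, while all 4 distal peaks were wider than the median of theirs. With no height or replicate value, widths that differ by little, such as 1174 and 1244 bp, cannot be ordered beyond the list itself.

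**Figure D2:**
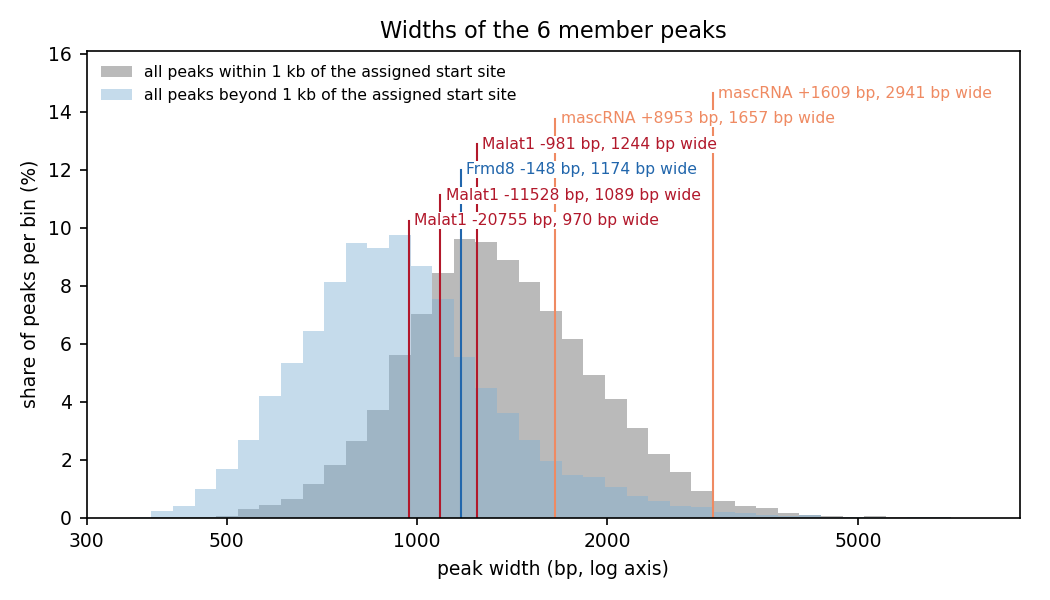
Share of peaks per width class (y axis, %) against peak width in bp on a log axis, for all peaks within 1 kb (grey) and beyond 1 kb (blue) of the assigned start site, with vertical lines at the 6 locus peaks. The peak mascRNA +1609, at 2941 bp, stands in the upper tail of both classes and the other 5 lie between 970 and 1657 bp.

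Malat1 had more peaks than 83.5% of the genes with a peak. Of 15351 genes with at least 1 peak, 16.5% had 3 or more. Among the 1519 noncoding genes with an NR accession and a peak, 237 (15.6%) had at least 3 and 130 had exactly 3. The 3 of these whose summed peak width was nearest to the 3303 bp of Malat1 were the microRNA genes Mir6362 on chromosome 16 with 3287 bp, Mir5120 on chromosome 4 with 3275 bp and Mir5122 on chromosome 4 with 3332 bp. The likeness is in number and summed width alone.

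The peaks from mascRNA to Malat1 formed a run of short gaps that ended at Neat1. From the 3′ side, the gap between the mascRNA peaks was 5045 bp, the gap across the Malat1 gene was 7188 bp, and the gaps between the Malat1 peaks were 9381 and 8197 bp. These were shorter than the median gap of 23.6 kb on chromosome 19, and between 7.84% and 21.9% of the 816 gaps on that chromosome were shorter still. The next gap, from Malat1 -20755 to Frmd8 -148, was 50857 bp and held the whole Neat1 gene and the start sites of Neat1 and of the noncoding gene Gm9783. It also held the Frmd8 gene except the first 505 bp, so it was not a gap over Neat1 alone.

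A gap as long as that over Neat1 was not unusual. Of the gaps on chromosome 19, 29.9% were at least as long, and of 26211 gaps on all chromosomes, with a median of 33.9 kb, 38.3% were. Among 3066 gaps within 20% of its length, 42.6% held the start site of at least 1 GENCODE gene and 15.9% held at least 2, as this one did. Beyond the locus, 1940 bp separated the Frmd8 peak from a peak of Slc25a45. The first and last of the 6 peaks spanned 89.7 kb.

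**Figure D3:**
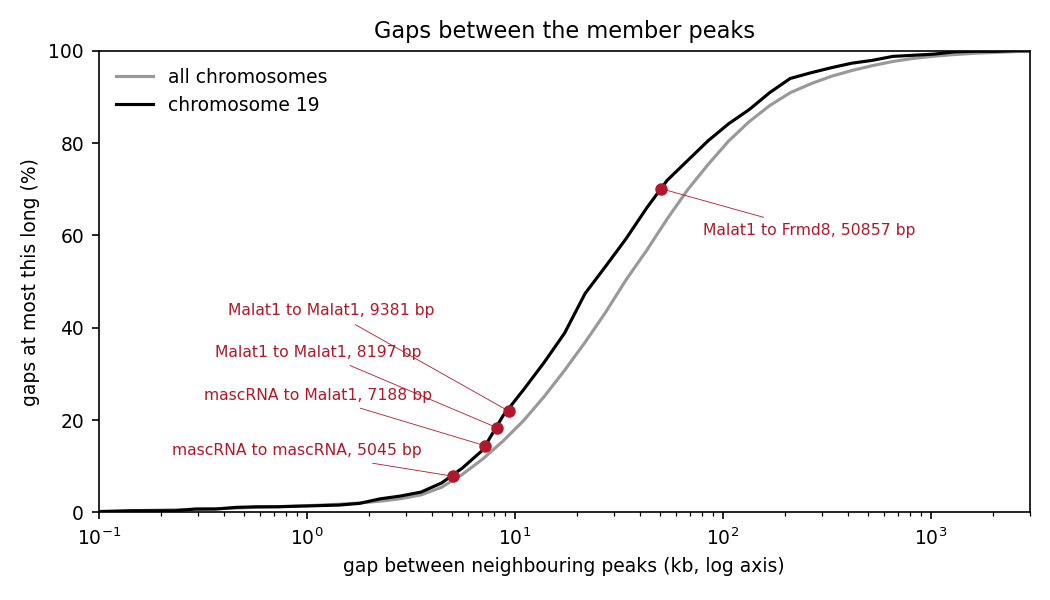
Cumulative share of gaps between neighbouring peaks (y axis, % at most this long) against gap length in kb on a log axis, for chromosome 19 (black) and all chromosomes (grey), with the 5 gaps between the locus peaks marked on the chromosome 19 curve. The 4 gaps from 5045 to 9381 bp lie at the foot of the curve, with at most 21.9% of the chromosome 19 gaps shorter, and the gap over Neat1 lies in its upper part, with 70.1% of the chromosome 19 gaps shorter.

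The locus lay in a stretch dense in peaks. With 100 kb on either side of the span of the member genes, 279.585 kb in all, 17 peaks were counted by midpoint, or 6.08 per 100 kb, against 1.33 on chromosome 19 and 0.988 over all chromosomes. When all chromosomes were tiled with windows of that length, 42 of 9021 windows (0.466%) held at least as many, and 0.966% of the 207 windows of chromosome 19 did. The span of the member genes without flanks, 79.585 kb, held the midpoints of the 3 Malat1 peaks, or 3.77 per 100 kb, and 10.0% of windows of that length held at least as many. The midpoints of both mascRNA peaks and of Frmd8 -148 fell outside that span, the last at -82 bp from the annotated Frmd8 start site. They were counted with the flanks, so these counts do not separate the density of the member peaks from that of the flanks.

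The 11 other peaks of that stretch were assigned to 9 protein coding genes, among them Map3k11, Slc25a45, Tigd3, Dpf2, Cdc42ep2 and Pola2. Of these peaks 7 lay within 1 kb of the assigned start site, and their widths ran from 796 to 1919 bp with a median of 1186 bp, below the 2941 bp of mascRNA +1609. In the annotation, 7 of the 12 coding genes of the stretch, Frmd8 among them, had a peak within 1 kb of a start site. Of its 5 noncoding genes 1 did, Malat1, while Neat1, Gm9783, Gm16538 and Gm20417 did not. Cdc42ep2 was not among those coding genes, since the list and the annotation place its start site differently. In the list it had a peak of 1919 bp at 293 bp from the start site. Its other peak was distal, at -10669 bp, a distance close to that of Malat1 -11528.

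Over whole peaks, GC content and CpG ratio were higher in the 2 peaks within 1 kb of a start site than in the 4 distal ones. The peak Malat1 -981 had a GC content of 58.4%. Its CpG ratio, the number of CpG dinucleotides over that expected from the C and G content, was 0.783, higher than in 86.9% of all peaks, and Frmd8 -148 had 56.3% and 0.528. In the 4 distal peaks the GC content was lower, between 47.0% at mascRNA +1609 and 53.1% at Malat1 -11528, and the CpG ratio lay between 0.0526 and 0.274. The medians over all peaks were 54.5% and 0.438. mascRNA +1609 was low in GC, with 10.0% of all peaks lower, and Malat1 -11528 was low in CpG, with 1.80% of all peaks lower. In the central 300 bp the order by GC did not hold, since Malat1 -11528 had 67.7% against 59.3% at Frmd8 -148. The order by CpG ratio held there, with 0.917 at Frmd8 -148 and 0.924 at Malat1 -981 against at most 0.427 in the distal peaks.

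**Figure D4:**
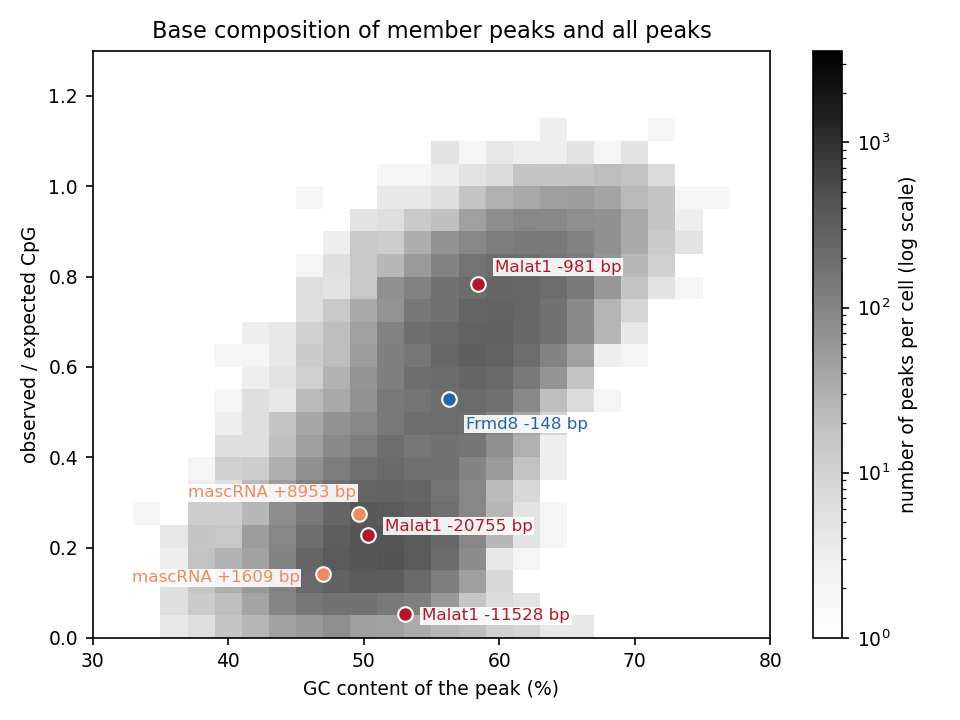
CpG ratio, observed over expected (y axis), against GC content in % (x axis) of the 6 locus peaks, coloured by gene, over the number of all peaks per cell on a log grey scale. Malat1 -981 and Frmd8 -148 lie at CpG ratios of 0.783 and 0.528, and the 4 distal peaks lie at or below 0.274.

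The start sites themselves were also compared. In the 500 bp on either side, the Malat1 start site had a GC content of 41.3% and a CpG ratio of 0.648, Neat1 had 57.0% and 0.520, and Frmd8 had 57.6% and 0.530. A promoter was called CpG-rich at a GC content of at least 50% and a ratio of at least 0.6, so all 3 were CpG-poor, Malat1 by its GC content and the others by their ratio. A peak overlapped 15.3% of 3035 CpG-poor noncoding promoters and 83.0% of 810 CpG-rich ones. For coding genes the shares were 25.0% and 89.5%. Frmd8 thus belonged to the smaller share of CpG-poor coding promoters with a peak, Neat1 to the larger share of noncoding ones without, and at Malat1 the peak reached into the window and stopped short of the start site.

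The distal peaks held more repeated sequence than most peaks of the chromosome. A 32-base word was counted as repeated when it occurred more than once in the genome on either strand. Copies within the same peak were included, so the tandem repeat of Malat1 -11528 described below can add to its share. The share of repeated words was 13.0% in Malat1 -20755, 20.4% in Malat1 -11528, 15.9% in mascRNA +1609 and 12.9% in mascRNA +8953, and it was 0% in Malat1 -981 and Frmd8 -148. Over 817 peaks of chromosome 19 the median was 0%, and 9.30% of them exceeded 10%, with 14.1% among the 410 peaks beyond 1 kb. Repeated sequence can be harder to map, and its part in the width or the calling of these 4 peaks was not tested. At Neat1 the share was 1.92% of words in the gene and 0% in the 500 bp on either side of its start site. In the whole gap over Neat1 it was 5.44%. Any part of mapping in the absence of peaks there was not tested.

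The peak Malat1 -11528 was centred on a tandem repeat, visible in the printed centre as a unit that returns with small changes. In its central 300 bp, 86.4% of bases equalled the base 36 bp further on. At the best lag between 10 and 60 bp in each peak the median identity over all peaks was 33.6%, and 185 peaks (0.705%) were at least as repetitive. The other 5 locus peaks had values between 30.9% and 35.2%.

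Each of 9 motifs was searched on both strands of the 6 whole peaks. The TATA box TATAAA occurred 8 times in 4 peaks, or 0.882 times per kb against 0.288 over all peaks, of which 26.6% held it. The GC box GGGCGG, the site of SP factors, occurred in 2 peaks, 4 times in Malat1 -981 and 1 time in Frmd8 -148, or 0.551 per kb against 1.96 over all peaks, of which 61.0% held it. The CCAAT box CCAAT occurred 8 times in 4 peaks against 70.5% of all peaks. The GATA motif AGATAA was found in 1 peak, mascRNA +1609, against 33.5% of all peaks. The E-box CACGTG (20.9% of all peaks) was found in Frmd8 -148, the homeodomain motif TAATTA (14.0%) in 1 peak, and the AP-1 motif TGANTCA (23.0%) in 2. The cAMP response element TGACGTCA (3.16%) and the MEF2 motif (1.40%) had no match. A longer peak has more room for a match, so these counts rise with width and are descriptions only.

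In the printed promoter windows, Frmd8 held 1 CCAAT box on the opposite strand, 12 bases before the start site, a motif found in 37.7% of 26212 RefSeq promoters of that length. The Malat1 window held none of the 9 motifs, which says only that those letters were not in the window.

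The protein partners of these RNAs were examined through 4 gene lists. Of 22 genes for nuclear speckle proteins, the bodies where Malat1 gathers, all 22 had a peak within 1 kb of the start site, a share to be read beside 52.1% of coding genes. The widest was 2791 bp at U2af2, a subunit of the splicing factor that recognises the 3′ splice site, followed by 2556 bp at Srsf1, a serine and arginine rich splicing factor. Srsf6 and Srsf7, of the same family, had 3 peaks each, as many as Malat1. None of the speckle genes had a widest peak as wide as mascRNA +1609.

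Of 20 genes for paraspeckle proteins, the partners of Neat1, 13 had a peak (65%) and 12 had one within 1 kb (60%), near the shares of 65.1% and 52.1% over coding genes. The core genes Sfpq, Nono and Pspc1 each had 1 peak, 1892, 957 and 1933 bp wide, with midpoints 479, 38 and 171 bp downstream of the start site. Cpsf6, a subunit of the 3′ end processing factor CFIm, had the most with 6 peaks, and Hnrnpr had the widest at 2334 bp. The 7 genes without an assigned peak included Rbm14, Hnrnpa1, Dazap1, Ewsr1, Nudt21 and Rbm12. That count rested on the gene symbol: when peaks within 500 bp of a GENCODE start site were counted whatever their symbol, 18 of 20 genes had one. By the same count Neat1 still had none. The nearness to all coding genes therefore holds for assigned symbols only. A like positional count, at the 5′-most start site of each gene alone, found a peak at 89.5% of 9879 CpG-rich coding promoters. At 12488 CpG-poor ones the share was 25.0%. The 18 allowed any annotated start site and were not split by CpG class, so neither share is a direct match.

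The processing list held genes for RNase P and RNase Z, the enzymes that make the ends of mascRNA, and for tRNA ends. It also held Mettl16, which is none of these, and the noncoding Rpph1, to which a share of coding genes does not apply. Of its 15 genes, 14 had a peak within 1 kb (93.3%), beside 52.1% of coding genes. The exception was Pop7, a protein subunit of RNase P. Rpph1, the RNA subunit of RNase P, had a peak of 886 bp with its midpoint at -9 bp, and Elac2, a gene for RNase Z, had 2 peaks. Rpp14 and Rpp21, protein subunits of the enzyme, had 3 each. Only 6 of the 14 remained when peaks narrower than the median of the list were left out.

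Of 28 other long noncoding RNA genes, 17 had a peak (60.7%) and 10 had one within 1 kb (35.7%), above the 33.1% and 10.2% over all such genes with an NR accession. The genes were picked as well-known examples, so this difference says nothing of noncoding genes in general. These shares also rest on the gene to which each peak was assigned. By position, 7 of the 16 genes present in GENCODE had a peak within 500 bp of a start site. The positional shares over noncoding promoters were 83.0% of 810 CpG-rich and 15.3% of 3035 CpG-poor ones. Whether the list stands above noncoding genes by position was not tested. Terc, the RNA of telomerase, and Pvt1 had 4 peaks each, and Tug1 had 3, the number of Malat1. The widest peak, 1838 bp, was at Gas5. Neat1 shared the lack of an assigned peak with 11 of them, among them Xist, Rian, Mirg, Snhg1, Miat and Fendrr. Counted by position, Snhg1 did have a peak within 500 bp of a GENCODE start site, so its lack rested on the symbol. Xist, Rian, Mirg and Miat had none by position either, and Fendrr was not in GENCODE.

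**Figure D5:**
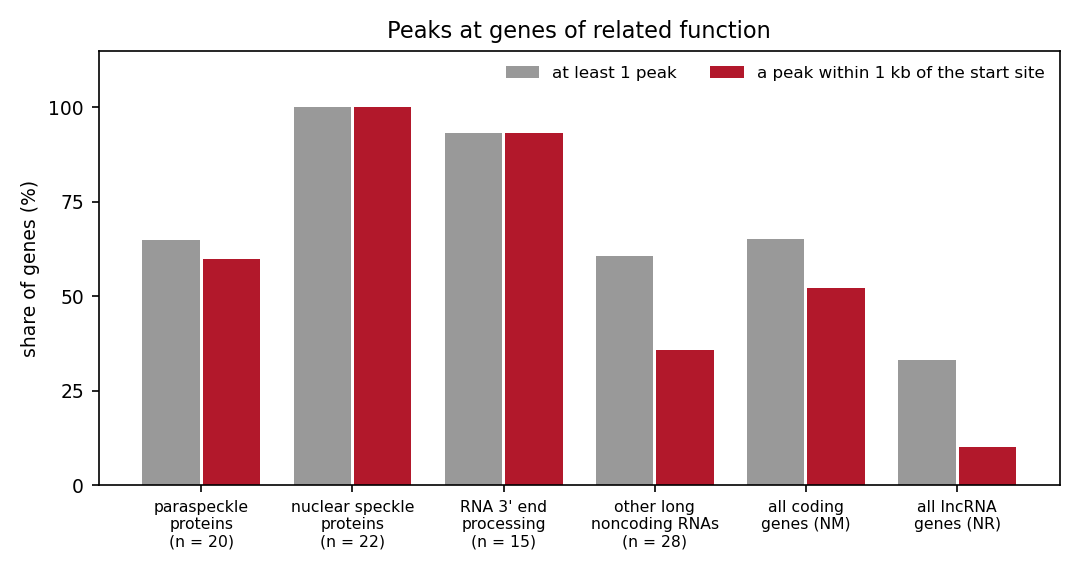
Share of genes (y axis, %) with at least 1 peak (grey) and with a peak within 1 kb of the assigned start site (red) in the 4 gene lists and, at the right, among all coding genes (NM) and all long noncoding RNA genes (NR). Peaks are counted by assigned symbol. The speckle list stands at 100% in both, and the paraspeckle list, at 65% and 60%, lies near all coding genes by that count. By position, 18 of 20 paraspeckle genes had a peak at a start site.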

How the data were processed

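Chromatin accessibility was profiled by ATAC-seq in 2 replicates of day 5 CPCs. Per the study's methods and the submitters' processing notes, the authors mapped reads to mm9 with bowtie2, kept proper primary pairs with samtools, removed duplicates with Picard 1.136, called peaks with MACS14 using a fixed shift and no model, dropped blacklisted peaks and intersected the replicates with bedtools 2.15 (at least 1 bp). A further Tn5 offset is not given in the sources used here, and the step that assigned start sites is described for ChIP-Seq peaks only. Since 1 interval stands for both replicates, width depends on the caller and on the depth of the replicate it came from. The deposited columns hold coordinates and a signed distance in bp, with an accession and a symbol.

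The 26429 lines were reduced to 26232 distinct intervals. Sequence and gene models came from NCBIM37 (mm9) and GENCODE vM1, and gene classes, mascRNA length and motif background promoters from RefSeq tables (GRCm38.p6), used without their coordinates. The GENCODE noncoding class held lincRNA and processed transcripts. Python 3.11.15, pandas 2.3.3, numpy 2.4.6, pysam 0.24.0 and samtools 1.23.1 were used, and the counting functions were checked on simulated data. A printed percentile is the share of values strictly below.

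The members and gene lists were chosen with earlier results of these data known. Named genes were the members, the genes with a peak within 100 kb of their span, in each list the genes with the most peaks, the widest peak or no peak, and the 3 noncoding genes nearest to Malat1 in summed width. Srsf1, the core paraspeckle genes, Rpph1, Elac2 and Tug1 were named for their role or their likeness to a member after their values were seen, as were the checks of repeats and of gene ends. Alternatives changed duplicate lines, width, joining of intervals, distance rule, gene assignment, flank and sequence window. Some genes and sequences are not reported here.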

Additional observations from a re-analysis of the deposited data

How the results depend on the processing

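Of 81 combinations of a result and an alternative setting, 62 stayed within the tolerance, which was 1.5 times for a count and the first 3 significant digits for another value, and 19 did not. Neat1 had 0 peaks under each setting tried. The settings that removed or joined peaks kept the deposited symbols, so they could not have given Neat1 a peak. Within the tolerance, the total fell from 6 to 5 and Malat1 from 3 to 2 with peaks wider than the median, and the paraspeckle genes with a near peak went from 12 to 9 there and to 18 by position. Counting every line, leaving out peaks under 500 bp and joining peaks under 200 bp apart changed none. Assigning a peak by its midpoint in the annotated gene or up to 5 kb upstream gave 3 peaks in place of 6, with 1 for Malat1, 0 for mascRNA and 2 for Frmd8. That setting took any peak whatever its symbol, and 1 of the 2 for Frmd8 was the Slc25a45 peak, which is not among the 6. With peaks wider than the median of the list, the median width was 1244 bp, the median absolute distance was 1609 bp in place of 5281 bp, the gap over Neat1 was 60024 bp, the median gap was 8284.5 bp in place of 8197 bp and the density was 4.29 per 100 kb. The processing and other noncoding lists then had 6 and 5 genes with a near peak, in place of 14 and 10. The median distance was 6255.5 bp to GENCODE start sites (4 peaks, without mascRNA) and 4242 bp from the nearest edge. Between midpoints the gap over Neat1 was 51929 bp and the median gap 9281 bp. Flanks of 50 and 250 kb gave 6.68 and 6.21 peaks per 100 kb. The central 300 bp gave a median GC content of 57.8% in place of 51.7% and 5 motif matches in place of 26. These follow from the construction of each setting. No replicate could be left out and no threshold of the caller could be made stricter, since scores and separate values for the replicates are not in the list. No paired analysis was possible because the samples form 1 group and no column stands for a single replicate. Depth is unknown, so a missing peak, as at Neat1, sets no limit on accessibility.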
